A study of Rattus norvegicus with 9 samples.

Results

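The genes described here are the ligands and receptors of the tumor necrosis factor (TNF) superfamily in rat brain. They were chosen by symbol, as Tnf, Lta, Ltb, Ltbr, Fas, Faslg, Cd27, Cd40, Cd40lg, and every symbol that begins with Tnfsf or Tnfrsf and a number, with no use of their measured levels. The rule found 38 of the 19291 genes on the array, of which 16 encode ligands, 5 receptors with a death domain, 16 receptors without one, and 1 a soluble decoy receptor. Male Sprague Dawley rats, whose age was not given, were studied at day 14 in 3 groups of 3 rats with 1 one-color Agilent array per rat. Sham rats had a sham operation and received solvent. I/R rats underwent occlusion of the middle cerebral artery for 2 h followed by reperfusion, and DHI rats had the same injury and received Danhong injection, a preparation of the herbs Danshen and Honghua, every day into the tail vein. The tissue was the infarcted hemisphere, and all RNA came from bulk tissue.

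Ligands of this superfamily are mostly trimers held on the cell surface or released by proteases, and each binds 1 or several receptors. Receptors with a death domain can start apoptosis or necroptosis, while most others recruit TRAF adaptors and activate NF-kB, a transcription factor of inflammation and survival. In the brain, microglia and invading leukocytes are known sources of TNF after ischemia, and several members costimulate T and B cells.

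Each value is the log2 intensity of the brightest probe of a gene minus the log2 of the 75th percentile of its array, so a value of 0 marks the intensity of that percentile and a difference of 1 is a 2-fold difference. Of the 38 members, 32 passed the filter (well above background on every array of some group) and were tested, 24 cleared background on all 9 arrays, and 3 (Cd40lg, Tnfrsf18, and Tnfsf18) on none. A differentially expressed gene (DEG) had an unadjusted p under 0.05 and a fold change (FC) over 1.5 in limma. Adjusted p-values are Benjamini-Hochberg values over all 23747 probes. Values from 1 member are not set against those of another, because probes differ in brightness.

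The arrays differed within groups before any test. Between 75.2% and 78.9% of probes were well above background, and the defining markers of neurons (7 of 7), astrocytes (7 of 7), and oligodendrocytes (6 of 6) were so on all 9 arrays. Sham and I/R arrays shared 1 slide and 1 scan, and the DHI arrays were on another slide, so that slide and Danhong injection cannot be told apart. DHI 1 stood apart from DHI 2 and DHI 3. Of the 18 members that were higher in I/R than in Sham, DHI 1 reached the range of the I/R arrays or passed it in 15, whereas DHI 2 and DHI 3 did so in 0. The summed level of 10 microglia and macrophage markers, as intensity relative to the 75th percentile, was 11.1 to 13.5 in Sham, 66.1 to 189 in I/R, 103 on DHI 1, 15.2 on DHI 2, and 17.7 on DHI 3. The sum of 8 T cell markers moved likewise, with 0.179 to 0.21 in Sham, 0.544 to 0.963 in I/R, 0.695 on DHI 1, 0.205 on DHI 2, and 0.212 on DHI 3. The sum of 7 neuron markers went the other way, with 58.6 to 68.4 in Sham, 6.16 to 31.1 in I/R, 21.3 on DHI 1, 68.7 on DHI 2, and 48.5 on DHI 3. Choroid plexus markers summed to 0.612 to 1.22 in Sham, but to 93.7 on I/R 3, 138 on DHI 1, and 74.7 on DHI 3, against 1.21 and 2.13 on the other I/R arrays and 7.59 on DHI 2. In DHI, Ttr dominates this sum, with a log2 mean of 5.38 where every other tested marker had -1.4 or lower. Folr1 differed, with log2 means of -5.29 (SD 1.09) in Sham and -0.78 (SD 0.51) in I/R. It was a higher DEG in I/R versus Sham, and Ttr, Clic6, Otx2, and Kcne2 were not called. The sums of the other lists in Sham, I/R, and DHI were 0.049 to 0.084, 0.312 to 0.94, and 0.108 to 0.468 for neutrophils, 63.1 to 70.8, 85.6 to 118, and 63.4 to 90.8 for astrocytes, 3.95 to 4.42, 4.43 to 6.74, and 4.14 to 5.17 for endothelial cells, and 142 to 166, 110 to 161, and 153 to 198 for oligodendrocytes. In I/R versus Sham, 9 of 10 microglia and macrophage, 5 of 7 tested T cell, 4 of 5 tested neutrophil, and 4 of 7 astrocyte markers were higher DEGs (22.4% of all genes). Some markers went against these sums. Cx3cr1 (microglia, log2 FC -1 ± 0.52) and Mpo (neutrophils, -0.31 ± 0.23) were no DEGs, and Slc1a2 (astrocytes, -1.12 ± 0.46) was a lower DEG. T cell markers differed among themselves. Cd8a (8.22 ± 1.88) and Cd4 (3.29 ± 0.59) rose most and Cd3d by 0.59 ± 0.14, while Lck (-0.03 ± 0.2) and Cd3e (1.15 ± 1.21) were no DEGs. The part of these markers in the members' results was not tested, and in bulk tissue fewer cells of a type and less RNA per cell cannot be told apart.

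**Figure D1:**
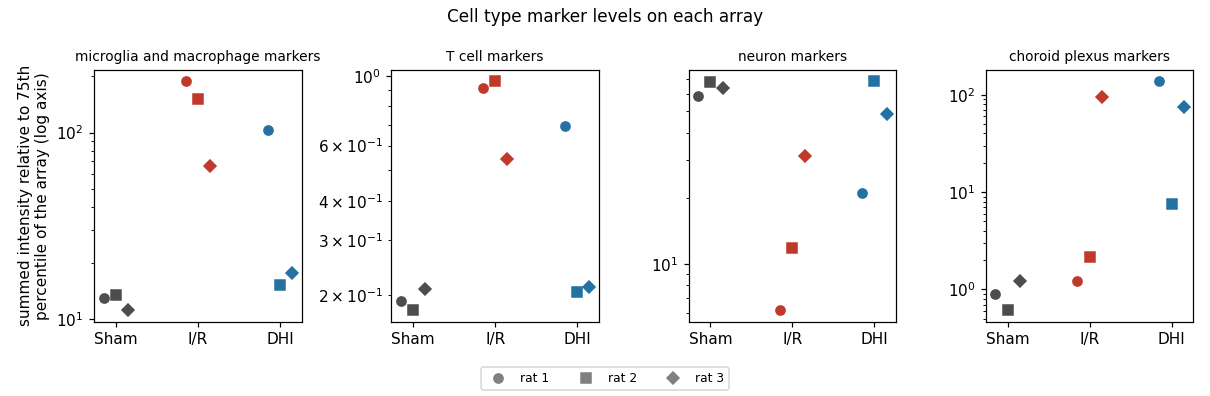
Summed intensity of the markers of 4 cell types on each array, divided by the 75th percentile (vertical log axis), by group (horizontal axis); each point is 1 array and its shape gives the rat number. For microglia and macrophage markers, DHI 1 (103) lay within the I/R range of 66.1 to 189, and DHI 2 (15.2) and DHI 3 (17.7) lay just above the highest Sham array (13.5).

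The cluster of Tnf, Lta, and Ltb on chromosome 20 is shown because these neighboring ligands differed in direction, and Fas because it was a DEG with a motif match. These are the 250 bases before the start of each gene in RefSeq on the GRCr8 build, 5′ to 3′ on the strand of the gene, and capitals mark matches to the 10-base NF-kB consensus on either strand, with overlapping matches joined.
Tnf (chr20:3626435-3626684, strand +): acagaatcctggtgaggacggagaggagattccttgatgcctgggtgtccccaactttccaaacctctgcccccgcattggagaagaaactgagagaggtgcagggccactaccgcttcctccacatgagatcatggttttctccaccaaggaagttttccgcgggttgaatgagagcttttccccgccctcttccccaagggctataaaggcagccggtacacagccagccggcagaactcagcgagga
Lta (chr20:3623277-3623526, strand +): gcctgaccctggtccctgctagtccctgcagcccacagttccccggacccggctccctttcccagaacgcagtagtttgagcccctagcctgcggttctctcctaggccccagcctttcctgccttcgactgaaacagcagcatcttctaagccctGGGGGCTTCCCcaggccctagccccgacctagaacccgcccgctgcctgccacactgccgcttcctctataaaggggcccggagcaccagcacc
Ltb (chr20:3634055-3634304, strand -): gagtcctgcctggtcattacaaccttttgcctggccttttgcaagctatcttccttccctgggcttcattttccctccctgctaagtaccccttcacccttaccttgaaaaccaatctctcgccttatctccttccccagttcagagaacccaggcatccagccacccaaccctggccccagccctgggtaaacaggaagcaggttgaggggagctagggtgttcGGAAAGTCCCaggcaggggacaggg
Fas (chr1:241211905-241212154, strand +): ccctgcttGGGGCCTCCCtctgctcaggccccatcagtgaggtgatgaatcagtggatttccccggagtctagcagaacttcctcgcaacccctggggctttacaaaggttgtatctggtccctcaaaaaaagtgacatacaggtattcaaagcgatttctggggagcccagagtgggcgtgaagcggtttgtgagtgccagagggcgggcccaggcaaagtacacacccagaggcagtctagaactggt
Promoters of 28 members were in the table, and 5 of them (17.9%) held a match, against 6.33% of all 33465 promoters of this length. Besides Fas, Lta, and Ltb these were Tnfrsf8 with GGGGAGCCCCC, which ends 157 bases before the start, and Tnfsf14 with GGGGCTTCCC, which ends 171 bases before it. Among members that were higher DEGs in I/R, 3 of 13 promoters (23.1%) held a match, and among the other members 2 of 15 (13.3%). The 3 were those of Fas, Tnfrsf8, and Tnfsf14, none of which had an adjusted p under 0.05 in limma. The other members include Tnfsf10, Tnfsf11, and Tnfsf18, which were not tested. A match is only a description of these letters.

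The first comparison asked how the superfamily differed between injured and sham-operated brain. In I/R versus Sham, 18 of 32 members were higher DEGs and 4 were lower DEGs, where 22.4% of all tested genes were higher and 22.4% lower. The median log2 FC was 0.96 over the members and -0.08 over all genes. The members that rose were 11 receptors without a death domain, 2 with one, and 5 ligands, and Tnfrsf13c, Cd40, Tnfsf4, and Tnfrsf1a differed most. Of these, Tnfrsf13c, Tnfrsf14, Cd27, Tnfrsf8, Faslg, and Tnfsf14 passed the filter only through I/R, the group in which they were high. Among the 24 members above background on all 9 arrays, 11 were higher and 4 lower (21.4% and 22.8% of all such genes). Their median log2 FC was 0.63, against -0.09 over all such genes. With normexp background correction, which models signal and background from the raw spot means and adds an offset of 50, 16 of the 22 calls were kept. The order was then Cd40 (3.55), Tnfrsf1a (2.85), and Tnfsf4 (2.42). The offset by itself shrinks log2 differences between dim values. For dim members, a smaller log2 FC or a lost call under this correction can therefore come from the offset alone. At an adjusted p under 0.05, 11 members were higher and 1 was lower, where 18% of all genes were higher and 16% lower. The groups did not overlap for 24 of the 32 members, and 64.7% of all genes did not overlap either. The adjusted calls lay close to the threshold. Their number fell from 12 to 0 without any 1 Sham array, without I/R 1, without I/R 2, or without DHI 3, and was 21 without DHI 1. A model of the 6 arrays of these groups alone, all on 1 slide, gave 19. The adjustment runs over all probes tested, and shares of all genes at the adjusted p were not counted under any alternative. These numbers therefore cannot be read as particular to the members. The 4 lower DEGs became 1 without Sham 2 or without Sham 3 and 2 without I/R 2, where 17.4%, 17.9%, and 17.1% of all genes were lower. The 18 higher ones became 12 without I/R 1, where 18.1% of all genes were higher.

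**Figure D2:**
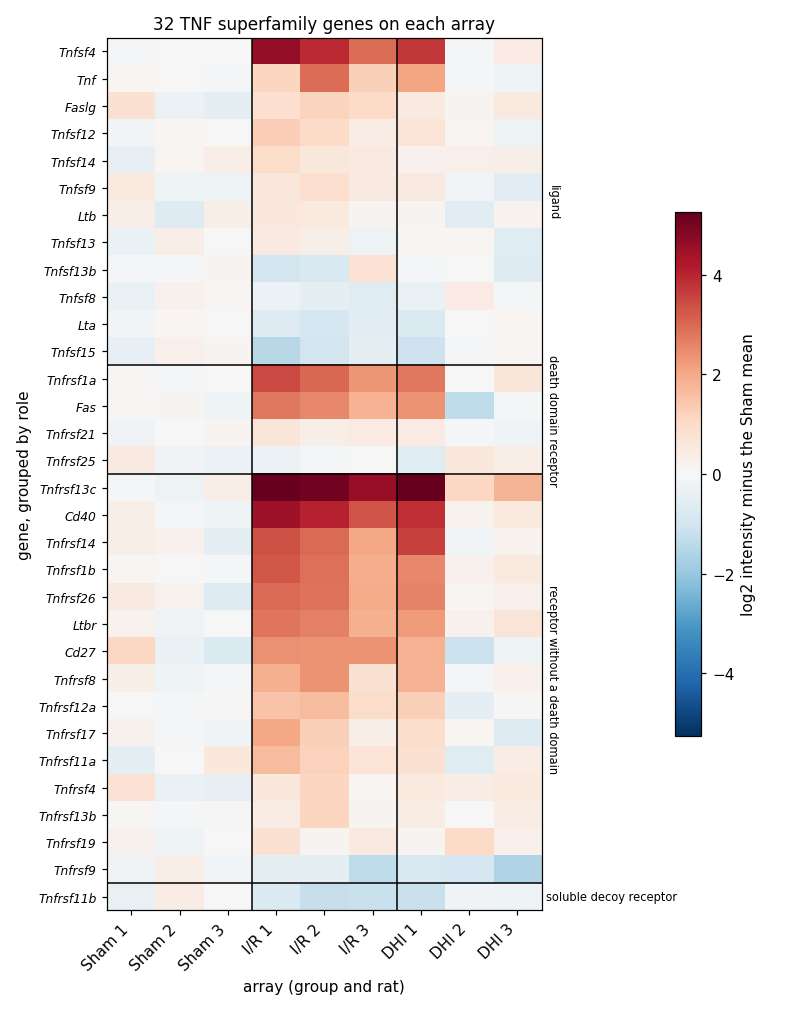
Difference in log2 intensity from the Sham mean (color) of the 32 tested members (vertical axis, grouped by role) on each of the 9 arrays (horizontal axis). Tnfsf4, Cd40, and Tnfrsf13c were red on all I/R arrays and on DHI 1, and paler on DHI 2, while Tnfrsf11b was blue on the I/R arrays and DHI 1.

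Among the 12 tested ligands, 5 were higher in I/R (Tnfsf4, Tnf, Faslg, Tnfsf12, and Tnfsf14), 2 were lower (Lta and Tnfsf15), and 5 were not called. Tnfsf4, which costimulates T cells through Tnfrsf4, read -6.46, -6.38, and -6.39 in Sham, -1.81, -2.49, and -3.46 in I/R, and -2.71, -6.53, and -5.96 in DHI. The I/R arrays and DHI 1 lay far above all Sham arrays, and DHI 2 lay below them. Its log2 FC in I/R was 3.82 ± 0.92 (SE, adjusted p = 0.0396). Tnf, the founding cytokine of the family, read -4.36, -4.51, and -4.54 in Sham, -3.33, -1.53, and -3.21 in I/R, and -2.38, -4.54, and -4.70 in DHI. I/R 2 was the highest array, DHI 1 exceeded I/R 1 and I/R 3, and DHI 2 and DHI 3 were at or below the lowest Sham array. The log2 FC of Tnf was 1.78 ± 0.68 (SE, adjusted p = 0.0723), and it was no longer a DEG without any 1 Sham array or without I/R 2, where it was 1.2.

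Faslg, the death ligand of cytotoxic lymphocytes that binds Fas, read -6.66, -7.73, and -7.93 in Sham, -6.54, -6.27, and -6.45 in I/R, and -6.97, -7.31, and -6.91 in DHI. It was well above background on 1 Sham array, all I/R arrays, and 2 DHI arrays, and Sham 1 lay just below the lowest I/R array. Its log2 FC of 1.02 ± 0.32 (SE, adjusted p = 0.0453) was 0.19 and not called with normexp correction. Tnfsf12 (TWEAK), which binds Tnfrsf12a, read 2.20, 2.48, and 2.40 in Sham, 3.64, 3.37, and 2.76 in I/R, and 3.06, 2.47, and 2.08 in DHI. The I/R arrays were all above Sham by a smaller step, and DHI 1 lay between I/R 2 and I/R 3. The log2 FC was 0.9 ± 0.3 (SE, adjusted p = 0.0536). Tnfsf14 (LIGHT), a ligand of Ltbr and Tnfrsf14, read -8.14, -7.58, and -7.36 in Sham, -6.74, -7.11, and -7.22 in I/R, and -7.47, -7.43, and -7.40 in DHI, a narrow gap between dim groups. Its log2 FC of 0.67 ± 0.23 (SE, adjusted p = 0.0528) became -0.01 with normexp background correction.

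Lta (lymphotoxin alpha), which lies beside Tnf and Ltb, fell in I/R. It read -4.47, -4.23, and -4.30 in Sham, -4.99, -5.26, and -4.88 in I/R, and -5.09, -4.30, and -4.23 in DHI, so the I/R arrays and DHI 1 lay below every Sham array. Its log2 FC was -0.71 ± 0.25 (SE, adjusted p = 0.0566), and -0.49 and not called with normexp correction. Tnfsf15, a ligand of Tnfrsf25 known from endothelial cells, read -3.81, -3.11, and -3.23 in Sham, -4.84, -4.34, and -3.88 in I/R, and -4.47, -3.49, and -3.29 in DHI, with the same placing of DHI 1. Its log2 FC was -0.97 ± 0.38 (SE, adjusted p = 0.0749). The ligands that were not called had log2 FC between -0.49 (Tnfsf8) and 0.66 (Tnfsf9). Ltb, the partner of Lta in the surface lymphotoxin trimer, had 0.41, Tnfsf13 (APRIL) 0.16, and the B cell survival factor Tnfsf13b (BAFF) -0.34. Tnfsf13b was well above background on all Sham arrays but on only 1 I/R array. Without I/R 3 it was a lower DEG in I/R versus Sham and a higher DEG in DHI versus I/R. The probes of Lta, Tnf, and Ltb lie within 1 cluster (chr20:3659744-3659803, chr20:3663558-3663617, and chr20:3666709-3666768, rn4), where Tnf rose, Lta fell, and Ltb did not pass.

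Of the 4 tested receptors with a death domain, Tnfrsf1a and Fas were higher in I/R, and Tnfrsf21 and Tnfrsf25 were not called. Tnfrsf1a, the widely expressed TNF receptor that can signal death, read -1.70, -1.86, and -1.72 in Sham, 1.72, 1.27, and 0.55 in I/R, and 1.00, -1.77, and -1.12 in DHI. The I/R arrays and DHI 1 lay far above every other array. The log2 FC was 2.94 ± 0.65 (SE, adjusted p = 0.0396), a 7.67-fold difference, and it stayed a DEG under every alternative tried, 20 in all, with log2 FC from 2.67 to 3.25. Fas, the receptor of Faslg, read -6.78, -6.69, and -7.07 in Sham, -4.09, -4.31, and -5.02 in I/R, and -4.47, -8.17, and -6.94 in DHI. DHI 1 lay between I/R 2 and I/R 3, DHI 3 among the Sham arrays, and DHI 2 below them. Its log2 FC was 2.37 ± 0.81 (SE, adjusted p = 0.0536), it was 1.05 with normexp correction, and without Sham 3 or without I/R 1 it was no longer a DEG. Its second probe gave 2.08 ± 0.89 and was also called. Tnfrsf21, a death domain receptor of neurons and oligodendrocyte precursors, had 0.47 ± 0.2 (SE, adjusted p = 0.0947), below the FC threshold, and Tnfrsf25 had -0.13 ± 0.33.

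Of the 15 tested receptors without a death domain, 11 were higher and 1 was lower in I/R. Tnfrsf13c, the BAFF receptor of B cells, read -8.89, -9.02, and -8.41 in Sham, -3.56, -3.69, and -4.21 in I/R, and -3.52, -7.67, and -6.99 in DHI. The probe was not well above background on any Sham array and was so on all I/R arrays and 2 DHI arrays, so it was at least 29-fold higher in I/R (adjusted p = 0.0396). That bound holds for the processed signal only. With normexp correction, whose offset of 50 exceeds the Sham intensities of this probe (5.3 to 7.7), the log2 FC was 1.9, still a DEG. This probe is named in the array design and was designed on an expressed sequence tag. Of the 4 B cell and plasma cell markers on the array, 0 were well above background on all 9 arrays and 1 on none, the 2 tested were not called, and their sum was 0.009 to 0.014 in Sham, 0.015 to 0.053 in I/R, and 0.016 to 0.027 in DHI.

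Cd40, a receptor of B cells, macrophages, and microglia that responds to T cell help, read -3.55, -3.98, and -4.08 in Sham, 0.60, 0.18, and -0.56 in I/R, and -0.02, -3.70, and -3.34 in DHI. The I/R arrays and DHI 1 stood far above the Sham arrays, and DHI 2 and DHI 3 lay close to them. The log2 FC was 3.94 ± 0.88 (SE, adjusted p = 0.0396), or 15.4-fold, and a second probe gave 3.9 ± 0.89. Tnfrsf14, the receptor of Tnfsf14, read -7.84, -7.94, and -8.69 in Sham, -4.81, -5.18, and -6.14 in I/R, and -4.58, -8.29, and -7.97 in DHI. No Sham array was well above background, and the log2 FC was 2.78 ± 0.91 (SE, adjusted p = 0.0495), or 6.88-fold. This is the fitted fold and no lower bound, because the Sham values lay above the lowest values that cleared background on those arrays. With normexp correction the log2 FC was only 0.74, still a DEG. Without Sham 3 or without I/R 1 Tnfrsf14 was no longer a DEG.

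Tnfrsf1b, the TNF receptor found mainly on immune and endothelial cells, read -3.91, -4.06, and -4.13 in Sham, -0.77, -1.15, and -2.13 in I/R, and -1.49, -3.81, and -3.52 in DHI. I/R 3 and DHI 1 were lower than the other I/R arrays but above every Sham array, as were DHI 2 and DHI 3 by a small step. Its log2 FC was 2.68 ± 0.6 (SE, adjusted p = 0.0396), or 6.42-fold, and its other probe gave a larger 3.99 ± 0.85. Tnfrsf26 read -4.79, -5.05, and -5.93 in Sham, -2.27, -2.41, and -3.30 in I/R, and -2.66, -5.13, and -5.00 in DHI, with a log2 FC of 2.59 ± 0.67 (SE, adjusted p = 0.0396). Ltbr, the receptor of surface lymphotoxin and Tnfsf14, read 0.23, -0.14, and 0.03 in Sham, 2.87, 2.69, and 1.89 in I/R, and 2.26, 0.25, and 0.70 in DHI. DHI 1 lay within the I/R range, and DHI 2 and DHI 3 just above the Sham range. The log2 FC was 2.44 ± 0.5 (SE, adjusted p = 0.0396).

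Cd27, a costimulatory receptor of lymphocytes, read -6.48, -7.92, and -8.32 in Sham, -5.19, -5.22, and -5.22 in I/R, and -5.75, -8.71, and -7.84 in DHI. The I/R arrays agreed closely (SD 0.02) and lay above all others, and the gene was well above background on 2 Sham arrays and 1 DHI array. Its log2 FC was 2.36 ± 0.75 (SE, adjusted p = 0.0455), and it was 0.73 with normexp background correction. Tnfrsf8, the receptor of Tnfsf8, read -7.97, -8.49, and -8.31 in Sham, -6.40, -5.91, and -7.45 in I/R, and -6.44, -8.36, and -7.98 in DHI. It was above background on 1 Sham and 1 DHI array, with a log2 FC of 1.67 ± 0.55 (SE, adjusted p = 0.0502) that was 0.34 and not called with normexp correction. Tnfrsf12a (Fn14), the receptor of Tnfsf12, read -2.65, -2.80, and -2.60 in Sham, -1.17, -1.03, and -1.72 in I/R, and -1.41, -3.15, and -2.60 in DHI, with DHI 1 within the I/R range. In I/R its log2 FC was 1.38 ± 0.41 (SE, adjusted p = 0.0426).

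Tnfrsf17 (BCMA), a receptor of plasma cells, read -5.84, -6.13, and -6.27 in Sham, -4.07, -4.84, and -5.77 in I/R, and -5.15, -5.98, and -6.76 in DHI. I/R 3 lay only just above Sham 1. The log2 FC of 1.19 ± 0.5 (SE, adjusted p = 0.0922) lost its call in 10 of 20 alternatives, normexp correction (0.46) among them. Tnfrsf11a (RANK), the receptor through which osteoclasts form, read -5.40, -4.89, and -4.33 in Sham, -3.21, -3.69, and -4.18 in I/R, and -4.10, -5.50, and -4.48 in DHI, with a log2 FC of 1.18 ± 0.43 (SE, adjusted p = 0.0648). Tnfrsf9, a costimulatory receptor of activated T cells, was the only receptor without a death domain that fell. It read -4.11, -3.57, and -4.04 in Sham, -4.37, -4.44, and -5.25 in I/R, and -4.75, -4.80, and -5.47 in DHI, and the I/R and DHI arrays all lay below Sham. The log2 FC of Tnfrsf9 was -0.78 ± 0.31 (SE, adjusted p = 0.0779), and -0.58 and not called with normexp correction. Tnfrsf4, Tnfrsf13b, and Tnfrsf19 were not called, with log2 FC of 0.6, 0.56, and 0.46.

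Tnfrsf1a, Ltbr, and Cd27 are neighbors on chromosome 4, with probes at chr4:162185192-162185251, chr4:161431938-161431997, and chr4:161351806-161351865 (rn4), and all 3 receptors rose. Exons and untranslated regions were not assigned, because no annotation of that build was used here.

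The soluble decoy receptor Tnfrsf11b (osteoprotegerin), which captures Tnfsf11 and Tnfsf10, was lower in I/R. It read -1.54, -0.77, and -1.14 in Sham, -1.91, -2.36, and -2.31 in I/R, and -2.33, -1.32, and -1.36 in DHI, so the I/R arrays and DHI 1 lay below all Sham arrays and DHI 2 and DHI 3 lay among them. The log2 FC was -1.04 ± 0.32 (SE, adjusted p = 0.0444), and it was kept as a DEG under all 20 alternatives. Of the 6 untested members, the death ligand Tnfsf10 (TRAIL) was at least 4.54-fold higher in I/R, where 2 arrays were well above background and 0 Sham arrays were. Tnfrsf10b, its death domain receptor, was at least 2.3-fold higher on the strength of 1 I/R array. Tnfsf11 (RANKL) was well above background on 1 DHI array only, and Cd40lg, Tnfsf18, and Tnfrsf18 on no array.

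**Figure D3:**
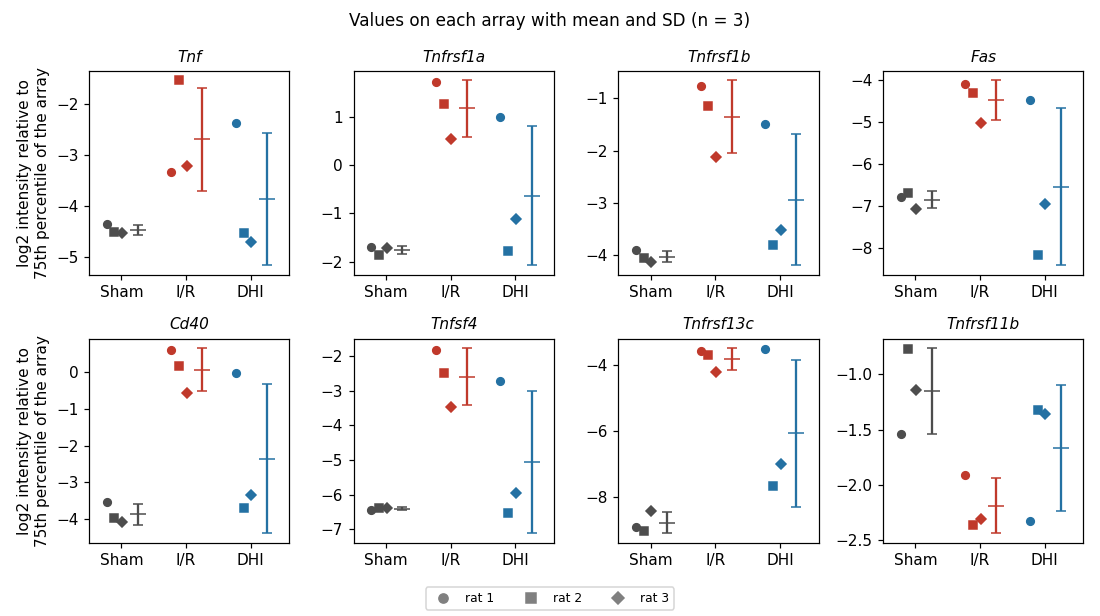
Log2 intensity minus that of the 75th percentile (vertical axis) for 8 members by group (horizontal axis); points are arrays with their shape giving the rat number, and the bars beside them are mean ± SD (n = 3). For Tnfsf4 the Sham arrays spanned -6.46 to -6.38 and DHI spanned -6.53 to -2.71, and Tnfrsf11b shows the opposite order.

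Ligands and their known receptors did not always move together in I/R. Tnf rose with both of its receptors (Tnfrsf1a and Tnfrsf1b), Faslg with Fas, Tnfsf12 with Tnfrsf12a, and Tnfsf14 with both Ltbr and Tnfrsf14, although Faslg and Tnfsf14 were not called with normexp correction. Tnfsf4 rose while its receptor Tnfrsf4 had a log2 FC of 0.6 ± 0.36 and was not called. Cd40 rose while Cd40lg was not above background on any array. Tnfrsf8 rose while Tnfsf8 had -0.49 ± 0.24, and Tnfrsf13c and Tnfrsf17 rose while their ligands Tnfsf13b and Tnfsf13 were not called. Cd70, the ligand of Cd27 that carries no Tnfsf symbol here, fell by 2.77 ± 0.61 on the log2 scale (adjusted p = 0.0396). Its I/R mean of -8.93 (SD 1.12) lay under the lowest values that cleared background on those arrays (-8.68 to -8.48). The size of this fall is therefore uncertain. Tnfrsf9 fell while its ligand Tnfsf9 had 0.66 ± 0.32, and Tnfsf15 fell while its receptor Tnfrsf25 was not called. Of the chains of surface lymphotoxin, the other ligand of Ltbr, Lta fell and Ltb was not called (0.41 ± 0.33). With normexp correction Lta, Tnfrsf8, Tnfrsf17, and Tnfrsf9 were not called. Differences between the partners of a pair were not tested.

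The second comparison asked how the treated brains differed from untreated injury. In DHI versus I/R, 0 of 32 members were higher DEGs and 13 were lower DEGs, where 10.8% of all genes were higher and 12% lower. The lower members were 3 ligands (Tnfsf4, Tnfsf12, and Tnfsf9), 2 receptors with a death domain (Tnfrsf1a and Fas), and 8 without one (Cd40, Tnfrsf13c, Cd27, Tnfrsf26, Tnfrsf1b, Ltbr, Tnfrsf12a, and Tnfrsf11a). The median log2 FC was -0.74 over members and 0.08 over all genes. Of the lower members, Cd27 and Tnfrsf13c passed the filter only through I/R. Among the 24 members above background on all 9 arrays, 10 were lower (11.5% of all such genes), with a median log2 FC of -0.6. No member reached an adjusted p under 0.05 (0 of 32 in limma, smallest 0.196), 13 had an unadjusted p under 0.05, and 0.00641% of all genes passed. This comparison shares the I/R arrays with the first one, and 12 of the 13 members were higher DEGs there, so the directions are not independent.

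These calls depended on single arrays. Only 4 of 32 members (Cd27, Tnfsf9, Faslg, and Tnfsf14) showed no overlap between DHI and I/R, as did 9.79% of all genes. Without DHI 1, 18 members were lower DEGs and 4 (Lta, Tnfrsf11b, Tnfsf15, and Tnfsf8) were higher, and 21 had an adjusted p under 0.05, for which no share of all genes was counted. Of all genes, 21.2% were then lower and 25.1% higher, so the share of higher members was below that of all genes. Without DHI 2 or without DHI 3, 0 members were called, where 1.96% and 2.34% of all genes were lower, so a count of 0 is near the background. Without I/R 1 or without I/R 2 only Cd27 was called, where 2.29% and 3.29% of all genes were lower. Without Sham 2, which enters only through the shared estimate of the spread, 8 were called (9.04% of all genes lower). In a model of the I/R and DHI arrays alone 3 were (5.36%), of which 2 are among the 13. With the test of the study's methods 0 of the 13 calls were kept, where 0.751% of all genes were lower. The shared spread covers unequal groups. DHI had the largest SD for each of the 13, as for Tnfsf4 (0.04 in Sham, 0.83 in I/R, 2.06 in DHI). The Sham SD was below that of I/R except for Cd27, Tnfrsf26, Tnfrsf11a, and Tnfsf9. With normexp correction 7 of the 13 calls were kept (Cd40, Tnfrsf1a, Ltbr, Tnfsf4, Tnfrsf1b, Tnfrsf12a, and Tnfsf12), where 9.13% of all genes were lower.

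Tnfsf4 and Cd40, both known in T cell costimulation, had log2 FC of -2.48 ± 0.92 and -2.43 ± 0.88, and Tnfrsf13c had -2.24 ± 0.94. With normexp correction these were -1.31, -2.11, and -0.63, and Tnfrsf13c was not called. For each of these, DHI 1 lay within the I/R range or above it and the other DHI arrays lay well below the lowest I/R array. Cd27, whose arrays did not overlap, had -2.22 ± 0.75, with DHI 1 at -5.75 just under the I/R arrays and DHI 2 at -8.71. This difference was -0.24 with normexp correction (adjusted p = 0.353 in limma) and was not called. Among the death domain receptors, Fas had -2.06 ± 0.81 and Tnfrsf1a -1.81 ± 0.65. With normexp correction Fas had -0.44 and was not called, and Tnfrsf1a had -1.73. For Fas its second probe gave -1.87 ± 0.89 and was not called.

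Tnfrsf1b had a log2 FC of -1.59 ± 0.6, Tnfrsf26 of -1.6 ± 0.67, and Ltbr of -1.41 ± 0.5. Smaller differences were those of Tnfrsf12a (-1.08 ± 0.41) and Tnfrsf11a (-1 ± 0.43). With normexp correction Tnfrsf26 (-0.93) and Tnfrsf11a (-0.42) were not called. Tnfsf9, the ligand of Tnfrsf9, was a DEG here and not in the first comparison, and it read -3.95, -4.73, and -4.76 in Sham, -3.87, -3.58, and -4.01 in I/R, and -4.02, -4.63, and -5.07 in DHI. All DHI arrays lay below the I/R arrays, with DHI 1 only just so, at a log2 FC of -0.76 ± 0.32 that was -0.28 and not called with normexp correction. Tnfsf12 had -0.72 ± 0.3. Tnfrsf21 was not called by its brightest probe (-0.42 ± 0.2), while its other probe had -0.84 ± 0.31 and was called. Of the other members without overlap, Faslg and Tnfsf14 were not called, with -0.64 ± 0.32 and -0.41 ± 0.23, and both turned with normexp correction, to 0.22 and 0.42. Faslg was called lower in 7 alternatives, with quantile normalization, the deposited log2 matrix, no scaling, only the 2 groups compared, array weights, the methods' t-test, where it was the only member, and without Sham 1.

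Tnf itself was not called in DHI versus I/R. Its log2 FC was -1.19 ± 0.68, with DHI 1 at -2.38, DHI 2 at -4.54, and DHI 3 at -4.70. Without DHI 1 it was -1.93 with an adjusted p of 0.0214, and without I/R 2 it was -0.6. Tnfrsf14 (-1.57 ± 0.91), Tnfrsf17 (-1.07 ± 0.5), and Tnfrsf8 (-1 ± 0.55) were not called either, and with normexp correction they were 0.07, -0.11, and 0.23. The members that were lower in I/R had estimates above 0 in DHI for Tnfsf15 (0.6 ± 0.38), Tnfrsf11b (0.53 ± 0.32), and Lta (0.5 ± 0.25), and below 0 for Tnfrsf9 (-0.32 ± 0.31, but 0.06 with normexp correction), and none of the 4 was called.

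**Figure D4:**
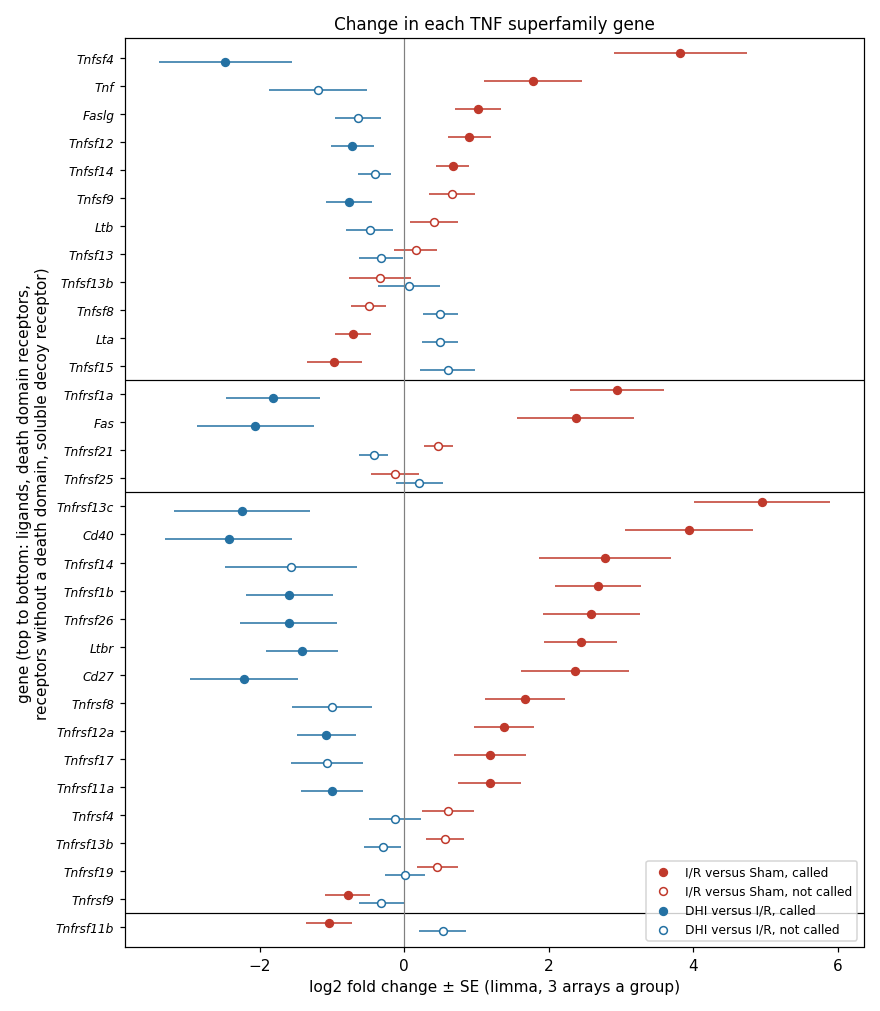
Log2 fold change (horizontal axis) of each tested member (vertical axis, by role) in I/R versus Sham (red) and DHI versus I/R (blue); filled points are DEGs, open points were not called, and bars are ± SE. The comparisons share the I/R arrays. Cd40 is at 3.94 in I/R versus Sham and Tnfsf4 at -2.48 in DHI versus I/R, and the red points of Tnfrsf13c and Tnfrsf14 are fitted values of probes that were not well above background on any Sham array.

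In DHI versus Sham, 1 member (Tnfrsf13c) was a higher DEG and 1 (Tnfrsf9) a lower DEG, where 2.61% of all genes were higher and 1.14% lower. No member passed an adjusted p under 0.05 in limma (smallest 0.709, 2 at an unadjusted p under 0.05), nor did any gene (0%). Leaving out Sham 1 gave 3 higher members, leaving out Sham 2 gave 0, and leaving out DHI 2 gave 5. Of all genes, 2.37%, 0.975%, and 8.62% were then higher. Tnfrsf13c was at least 6.14-fold higher in the processed signal as a mean of 3 DHI arrays, 2 of them well above background. All DHI arrays lay above all Sham arrays. That bound rests on DHI 1 and on the processed signal, since its log2 FC fell from 2.71 to 1.44 without DHI 1. With normexp correction the log2 FC of Tnfrsf13c was 1.27, still a DEG. Tnfrsf9 had a log2 FC of -1.1 ± 0.31 (adjusted p = 0.709), and it was -1.23 without DHI 1, so its place below Sham did not rest on that array. With normexp correction it was -0.51 and not called. Tnfrsf1a (1.13 ± 0.65) and Tnfrsf1b (1.09 ± 0.6) were not called, and Tnf (0.59 ± 0.68) and Fas (0.32 ± 0.81) turned to -0.15 and -0.71 without DHI 1.

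Genes that act below the receptors were counted from lists chosen by function. Of 17 tested adaptors, kinases, and death effectors, 8 were higher and 3 lower in I/R, where 22.4% of all genes were higher and 22.4% lower, so the lower count is near the background. Ripk3, the kinase of necroptosis, had a log2 FC of 4.56 ± 0.91, and Casp8, the initiator caspase of death receptors, 3.39 ± 0.8. Madd, Cflar, and Traf3 were lower, of which Cflar is an inhibitor of Casp8. Of 14 NF-kB kinases, subunits, and inhibitors, 9 were higher and 0 lower, led by Nfkb2 (2.14 ± 0.5) and Ikbke (2.14 ± 0.49). Among 11 genes known to be induced by TNF, 9 were higher and 1 (Sod2) lower. Cxcl10, a chemokine for T cells, had 6.14 ± 1.34, and Cxcl1, a chemokine for neutrophils, had 5.49 ± 1.77 but was not above background in Sham.

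All 5 sheddases and their regulators were higher in I/R, with Rhbdf2 at 2.36 ± 0.54 and Adam17, the protease that releases TNF, at 1.87 ± 0.44. Among 6 tested brakes on TNF signaling, 2 were higher and 1 lower, near the share of all genes (22.4% each way), with Tnip2 (1.73 ± 0.43) and Nfkbia (1.01 ± 0.33) higher and Cyld (-1.01 ± 0.31) lower. Of 4 superfamily genes under other symbols, Ngfr was higher (2.46 ± 0.9) and Cd70 lower, also near that share. In DHI versus I/R, 0 genes of these lists were higher, and 5 of the adaptors, 7 of the NF-kB genes, 7 of the induced genes, 3 of the sheddases, 2 of the brakes, and 0 of the superfamily genes under other symbols were lower, where 12% of all genes were. Ripk3 had -2.97 ± 0.91, Casp8 -2.27 ± 0.8, Cxcl10 -4.04 ± 1.34, and Adam17 -1.28 ± 0.44, each with an adjusted p of 0.196. The shared arrays and DHI 1 bear on these counts as on the members. Without DHI 1 the lower counts were 9 adaptors, 9 NF-kB genes, 10 induced genes, and 5 sheddases, where 21.2% of all genes were lower, and without DHI 2 they were 1, 0, 1, and 1, where 1.96% were.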

How the data were processed

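RNA of 9 rat brain hemispheres (3 Sham, 3 I/R, 3 DHI) was measured on one-color Agilent arrays. Groups and replicate numbers came from the sample titles. Nothing beyond the titles and the study's methods says how animals map to arrays, so p-values measure the spread between these samples. The members and gene lists were chosen with earlier results of these data known.

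The deposited scanner files hold linear spot intensity values, background-corrected by the authors with Agilent Feature Extraction 10.7.1.1 (per the submitters' processing notes) but left unscaled. A matrix of log2 values was deposited as well. It followed quantile-normalized log2 intensities (r 0.99953) and served as an alternative. All columns of values were used (0 left out).

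Control and outlier spots were removed, log2 processed signals were averaged per probe, and the 75th percentile of each array was subtracted. The 23747 probes that cleared background (well above it on every array of some group) entered lmFit and eBayes in limma 3.58.1 (R 4.3.3, data.table version 1.17.8), in 1 model of all 9 arrays with Benjamini-Hochberg adjustment. Each gene was represented by its brightest probe. Where every array of 1 group missed background, the fold is a lower bound. The dim group's mean then used, for each array, its lowest value that cleared background, or the probe's own value if that was higher. Where the probe's own values were higher on all arrays, as for Tnfrsf14, the fitted fold is given and is no bound. The number of arrays limits the precision.

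Every member is named. Array values and full statistics are given for members called without overlap in I/R versus Sham or DHI versus I/R and for Tnf, Tnfrsf1a, Tnfrsf1b, and Fas, and for each pathway list the 2 genes with the largest called change. Coordinates of probes are those of the files (rn4). The symbols of all 38 members, and the accessions of 29, matched the RefSeq table. Same-numbered arrays did not deviate together throughout (r -0.34 to 0.48), so replicate numbers were not taken as pairs. For DHI and I/R, r was 0.48 for replicate 1, -0.34 for replicate 2, and 0.42 for replicate 3. The model was tested on simulated data.

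The alternatives were quantile normalization, no scaling, normexp correction (offset 50), the deposited log2 matrix, no filter, probes above background on all 9 arrays, only the 2 groups compared, array weights, a replicate block, the methods' t-test, the mean of a gene's probes, and leaving out each array. Counts at the adjusted p and counts of pathway genes were added to these after seeing the data. A slide block could not be fitted, since each slide of the DHI comparisons held 1 of the groups compared.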

Additional observations from a re-analysis of the deposited data

How the results depend on the processing

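Of the 433 values of the 22 members called in I/R versus Sham under an alternative, 380 kept direction and call, 52 lost the call, and 1 reversed (Tnfsf14, -0.01 with normexp correction). Of 257 for the 13 members called in DHI versus I/R, 162 kept the call and 95 lost it, and of 39 for DHI versus Sham, 36 kept it and 3 lost it. The cause of these changes was not tested.

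In I/R versus Sham, higher calls were 11 among probes above background on all 9 arrays, which leaves fewer genes (21.4% of them higher). Lower calls were 1 with no scaling, 2 with normexp correction, and 2 with the methods' t-test, where 16.2%, 19.2%, and 20.2% of all genes were lower. Members at the adjusted p were 0 with no scaling, 19 with only the 2 groups, and 29 with array weights, with no share of all genes counted beside them. In DHI versus I/R, lower calls were 22 with no scaling, 7 with normexp correction, 3 with only the 2 groups, 21 with array weights, and 1 with the methods' t-test. Of all genes, 30.9%, 9.13%, 5.36%, 24.4%, and 0.751% were then lower. Higher calls were 3 with array weights, with which 28% of all genes were higher and 30 members had an adjusted p under 0.05. In DHI versus Sham, higher calls were 3 with normexp correction, 2 with no filter, 0 among probes above background on all 9 arrays, 6 with array weights, and 0 with the methods' t-test. Of all genes, 5.62%, 3.67%, 2.2%, 12.9%, and 1.08% were then higher. Lower calls were 2 with no scaling, 0 with normexp correction, and 4 with array weights, where 7.02%, 0.507%, and 4.51% of all genes were lower. With array weights 17 members passed the adjusted p. The fit of the array weights did not reach its convergence tolerance. Without scaling the median of all genes moved from 0.08 to -0.38 in DHI versus I/R, from -0.08 to 0.11 in I/R versus Sham, and from 0.01 to -0.26 in DHI versus Sham.

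Leaving out 1 array gave 12 to 19 higher and 1 to 5 lower members in I/R versus Sham, 0 to 4 higher and 0 to 18 lower in DHI versus I/R, and 0 to 5 higher and 1 lower in DHI versus Sham. Of all genes, 17.8% to 25.6% were higher and 15.2% to 24.2% lower in I/R versus Sham. In DHI versus I/R 2.15% to 25.1% were higher and 1.96% to 21.2% lower, and in DHI versus Sham 0.975% to 8.62% and 0.551% to 3.08%. Members at the adjusted p ranged from 0 to 21, 0 to 21, and 0. In DHI versus Sham, Fas ranged from -0.71 (without DHI 1) to 1.14 and Tnf from -0.15 (without DHI 1) to 1.01, and they were -0.08 and -0.21 with array weights. A replicate block gave 19 higher and 4 lower members in I/R versus Sham, 1 higher and 13 lower in DHI versus I/R, and 2 higher and 1 lower in DHI versus Sham. Of all genes, 22.6%, 14%, and 4% were then higher and 23%, 14%, and 1.79% lower. Of the 38 members, 24 were well above background on all 9 arrays, which limits what can be said of the other members.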
